A study of Mus musculus with 49 samples.

Results

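Phgdh, Psat1, Psph, Shmt1, Shmt2, Mthfd2, Mat1a, Mat2a, Gnmt and Bhmt, genes of serine synthesis, folate metabolism and the methionine cycle, were followed through 49 CEL-seq2 libraries of mouse hepatocytes, cells derived from them and intestinal organoids. These 10 genes are the rows, of 46078 Ensembl gene identifiers in the deposited count table, whose identifier maps to the listed symbols. They were chosen for how their levels, as CPM (counts scaled to a library of 1000000), differed between the 16 groups of the series. Their levels, fold changes and counts called are therefore given as a description without p-values. P-values were kept for 73 other genes of the same pathways. CEL-seq2 reads the 3′ end of each transcript and counts unique molecular identifiers (UMIs), so that a transcript adds to the count once whatever its length.

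All cells were wild type on the C57BL/6J background. FHs are hepatocytes freshly isolated from livers of 10-week-old adult male mice (n = 3). Such hepatocytes, separated from other liver cells by repeated centrifugation, were plated in medium with 20 ng/mL EGF and collected at 6 times from 3 h to 2 weeks (n = 3 at each time), or after 1 week with verteporfin (0.3 µM), an inhibitor of the coactivator Yap, or with DMSO, its solvent (n = 2 each). dediHeps are dedifferentiated hepatocytes propagated in monolayer with the same EGF concentration (n = 5 cultures). dediHep aggregates were formed from dediHeps on ultra-low attachment plates (n = 3), and dediHep-SOs are spherical organoids grown from dediHeps in Matrigel (n = 3), in both cases from 3 of the 5 cultures. dediHep-BOs are budding organoids grown after retroviral transfer of Cdx2, an intestinal transcription factor, into dediHeps (n = 3). CLiPs are hepatocytes converted to progenitor-like cells with the compounds Y-27632, A-83-01 and CHIR99021 (n = 3). FIPC-SOs are spherical organoids of fetal intestinal progenitor cells from the intestine of E13.5 embryos (n = 3), and ISC-BOs are budding organoids of crypt cells from the small intestine of 10-week-old adults (n = 4). The authors formed spherical organoids with EGF, Noggin, R-spondin1, Wnt3a and CHIR99021, and grew budding organoids finally without Wnt3a and CHIR99021. Spherical and budding organoids may thus differ in medium as well.

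Serine is made from a glycolytic intermediate in consecutive steps by Phgdh (phosphoglycerate dehydrogenase), Psat1 (phosphoserine aminotransferase) and Psph (phosphoserine phosphatase). Shmt1 in the cytosol and Shmt2 in mitochondria split serine into glycine and a carbon unit that is carried on folate, and Mthfd2 oxidizes that unit in mitochondria, an activity best known from embryonic and proliferating cells. In the methionine cycle, methionine adenosyltransferases make S-adenosylmethionine, the methyl donor of the cell. Mat1a encodes the enzyme of the adult liver and Mat2a that of most other tissues. Gnmt, a very abundant liver enzyme, uses surplus S-adenosylmethionine to methylate glycine, and Bhmt, found mainly in liver and kidney, returns homocysteine to methionine with a methyl group from betaine.

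The 10 genes lie on 9 chromosomes of GRCm38, the build given by the submitters' processing notes. The GENCODE annotation of that build places Phgdh at chr3:98313170-98339990, Psat1 at chr19:15904678-15947337, Psph at chr5:129765558-129787449, Shmt1 at chr11:60788104-60811718, Shmt2 at chr10:127517123-127522444 and Mthfd2 at chr6:83305691-83325908, all on the minus strand. It places Mat1a at chr14:41105035-41124412 on the plus strand, and Mat2a at chr6:72432799-72439558, Gnmt at chr17:46725664-46729168 and Bhmt at chr13:93616675-93637961 on the minus strand. Phgdh and Bhmt have annotated pseudogenes, Bhmt has the paralogue Bhmt2 and Mthfd2 the paralogue Mthfd2l. Reads shared between such copies could have been divided between them in counting, so the counts of these 3 genes carry that uncertainty.

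Promoter sequences were available from RefSeq (GRCm38.p6) for 9 of the 10 genes, Mat1a being the exception, and the 250 bases before each start site were searched on both strands. The motifs CCAAT, the element bound by NF-Y, and CAAAGGTCA, part of a direct repeat bound by nuclear receptors such as Hnf4α, were chosen after the sequences were seen. CCAAT was found for 8 of the 9 genes, all but Shmt2, and in 33.8% of all 32851 promoters of that length. It was thus found for genes above FHs at 1 day and also for Shmt1, Gnmt and Bhmt, which were below FHs then, with 1 match each. Mthfd2 held 3 matches, and 3 or more were found in 2.79% of all promoters. Psat1 has 2 promoters in the table, and its matches lie in the one shown. CAAAGGTCA was found in the promoter of Bhmt, and in 0.426% of all promoters. TGATGNAA, the composite element bound by ATF4, was in no member promoter and in 3.45% of all promoters, which says only that these letters are absent from these windows. The last 120 bases before the start site are shown for Psat1 and Mthfd2, which were above FHs already at 3 h, and for Bhmt, which had no count left in dediHeps. Capitals mark CCAAT or its reverse complement for Psat1 and Mthfd2, and CAAAGGTCA for Bhmt, all 5′ to 3′ on the strand of the gene. The CCAAT match of Bhmt, a reverse complement that begins 56 bases before the start site, also lies in the stretch shown, in lower case.
Psat1, chr19:15925060-15925179, minus strand: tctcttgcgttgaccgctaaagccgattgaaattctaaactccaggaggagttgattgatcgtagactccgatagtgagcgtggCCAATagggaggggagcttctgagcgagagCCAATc
Mthfd2, chr6:83317605-83317724, minus strand: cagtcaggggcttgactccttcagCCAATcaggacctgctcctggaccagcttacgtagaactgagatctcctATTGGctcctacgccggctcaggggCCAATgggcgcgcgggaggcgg
Bhmt, chr13:93637759-93637878, minus strand: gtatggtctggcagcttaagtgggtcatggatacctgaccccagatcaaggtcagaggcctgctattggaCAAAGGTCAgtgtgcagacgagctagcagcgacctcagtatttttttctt

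Libraries held 861047 to 3872936 UMI counts (median 1976760). CPM were scaled with TMM factors over all 49 libraries, under which 3 counts correspond to 0.630 to 4.10 CPM. The TMM factors of FHs were 0.604 to 0.678, and those of all libraries later than 3 h 0.909 to 1.27. Scaling by library totals alone therefore moved the median log2 fold change of all genes against FHs by 0.64 to 0.88 at 1 day and later times, in dediHeps and in aggregates, and changes against FHs are stated relative to the TMM scale. UMIs had 6 bases, which allows 4096 sequences per gene and library, and the highest count of these genes was 4034, so that the highest levels are compressed. The 8 hepatocyte markers (Alb, Ttr, Apoa1, Apob, Serpina1a, Cps1, Tat and Cyp2e1) summed to 19368 to 23448 CPM in FHs, 872 to 4194 CPM in dediHeps and 26.4 to 47.2 CPM in dediHep-SOs, where Alb, Tat and Cyp2e1 had no count. The same sum was 1060.5 to 1561 CPM in dediHep-BOs and 1170 to 1634 CPM in ISC-BOs, which come from intestine, so it is no measure of hepatocytes alone. Kupffer cell, liver endothelial, stellate cell or fibroblast and blood cell markers (4 lists) were all detected in FHs except Cd3e, with sums of 8.26 to 291 CPM a list, and summed to at most 2.17 CPM a list in dediHeps and aggregates. Stellate cell or fibroblast markers reached 140 CPM in a library of 2 weeks, 196 CPM in a dediHep-BO library and 363 CPM in a FIPC-SO library. Cholangiocyte markers (Krt19, Krt7, Epcam, Sox9 and Spp1) summed to 17.8 to 106 CPM in FHs, where Krt19 and Epcam had no count, and to 693 to 732 CPM at 3 h. Their sums were 1010 to 1671 CPM in dediHeps, 303 to 551 CPM in aggregates and 2494 to 3206 CPM in dediHep-SOs, with all 5 detected. The part of these markers in the differences was not tested. Nothing in the labels says that samples of a group came from separate animals, so SDs and p-values may cover technical spread only. The labels of dediHeps name separate cultures but no animals. In bulk RNA, fewer cells of a type and less RNA per cell cannot be told apart.

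**Figure D1:**
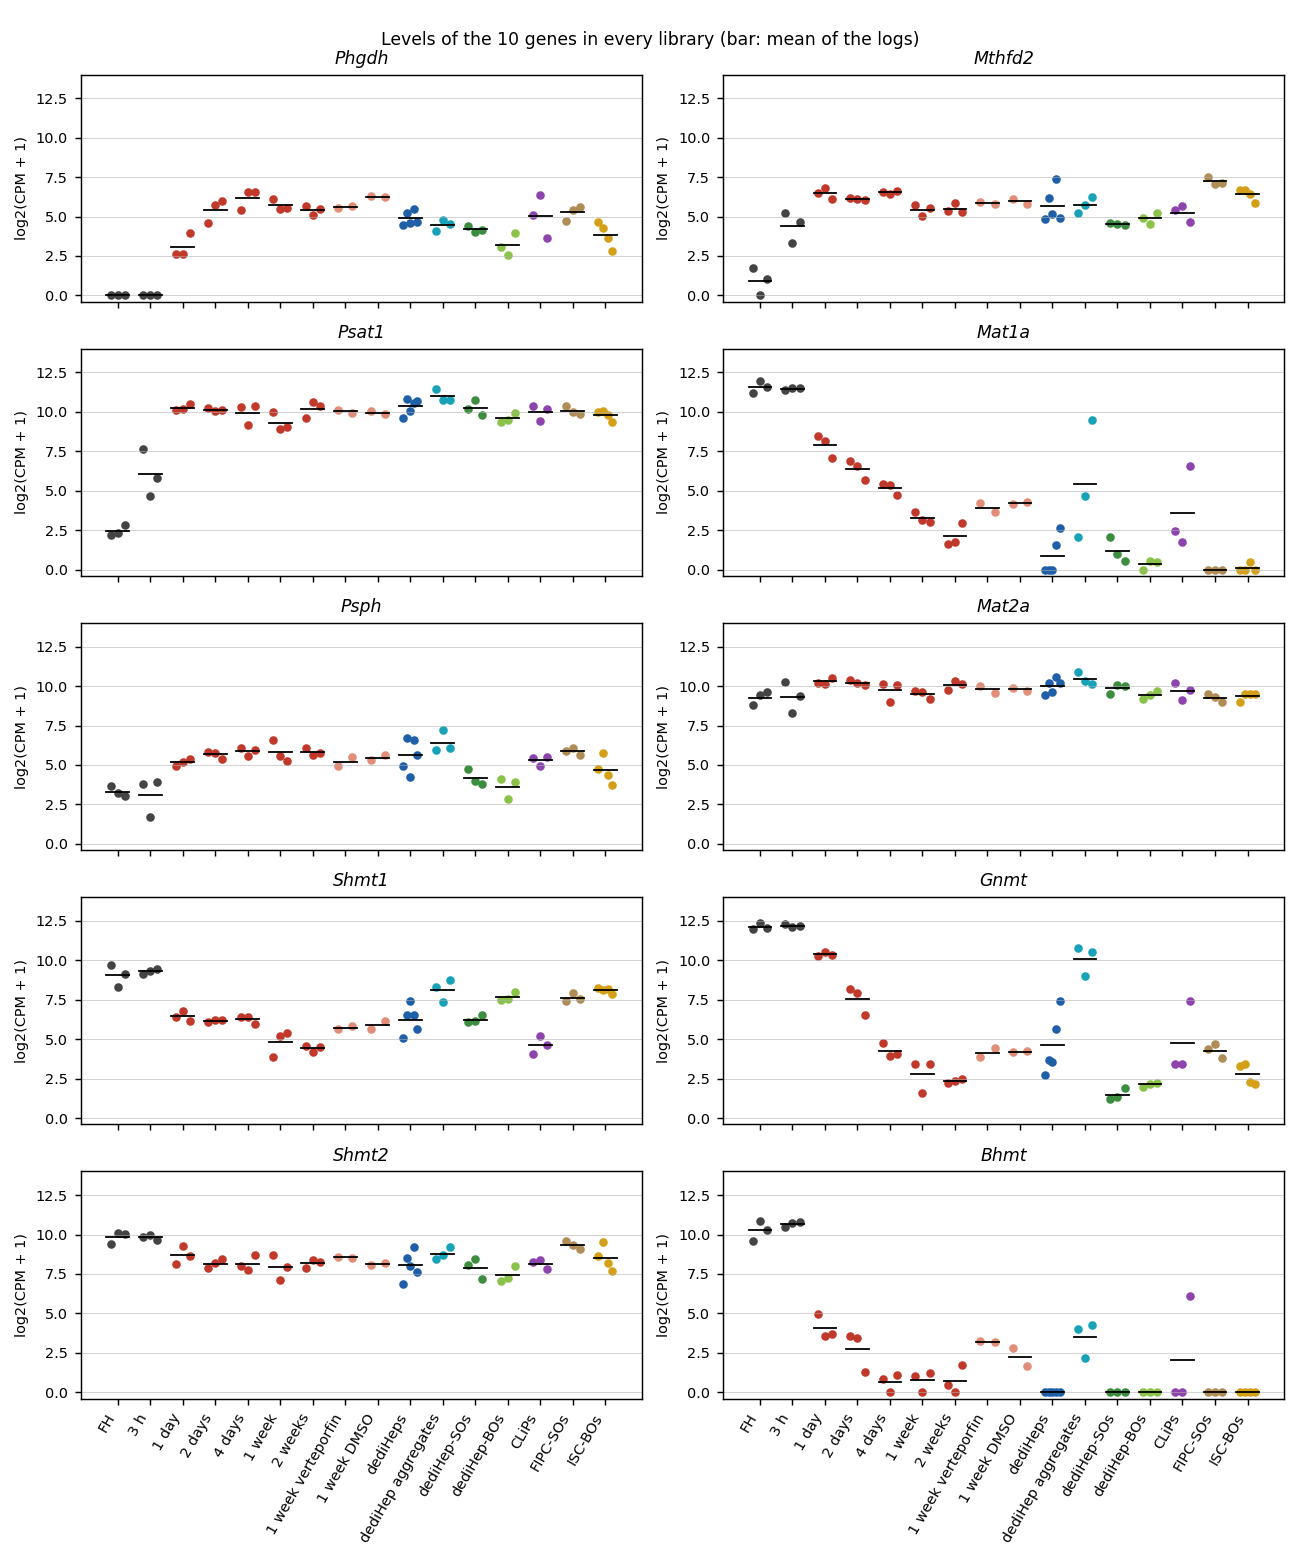
Level of each of the 10 genes in every library, as log2(CPM + 1) on the TMM scale (y axis), by group (x axis); each point is a library and each bar the mean of the points. Psat1 and Mthfd2 were above their FH values in every later library, whereas Gnmt, Mat1a and Bhmt were high in FHs and at 3 h and lower in every library of 1 day.

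The 3 genes of serine synthesis had at most 11.8 CPM in FHs and were found at higher levels from 1 day to 2 weeks and in dediHeps. Phgdh, the first enzyme, had no count in any FH or 3 h library, which allows up to 3 counts over each group. It stood at 5.20, 5.04 and 14.8 CPM in the libraries of 1 day, at 45.7 ± 20.3 CPM at 2 days (SD, n = 3) and at 75.9 ± 29.4 CPM at 4 days (SD, n = 3). Against 3 counts over the FH group, this was at least 6.92-fold higher at 1 day and at least 62.6-fold higher at 4 days. Phgdh then lay at 42.5 ± 8.52 CPM at 2 weeks (SD, n = 3) and at 21.3, 36.2, 23.6, 42.6 and 23.7 CPM in the 5 dediHep cultures, so that the ranges at 2 weeks and in dediHeps overlapped.

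Psat1, the second enzyme, was the most abundant of the 3 from 3 h on. Its levels were 3.54, 4.10 and 6.20 CPM in FHs and 200.04, 24.3 and 54.6 CPM at 3 h, where all libraries already exceeded all FHs but differed widely among themselves. At 1 day it stood at 1118, 1175 and 1419 CPM, and no library of a later group was below 483 CPM. The log2 fold change against FHs was 4.26 ± 0.67 (SE) at 3 h, 7.93 ± 0.71 at 1 day and 8.05 ± 0.54 in dediHeps. Without the first 3 h library the 3 h value was 3.05. Psat1 reached 4034 counts in an aggregate library, and with counts corrected for UMI collisions the mean in dediHeps was 2608 CPM instead of 1367 CPM.

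Psph, the last enzyme, varied over a smaller range. It measured 9.08 ± 2.41 CPM in FHs and 9.63 ± 6.45 CPM at 3 h (SD, n = 3 each), which overlapped, and 29.1, 35.3 and 41.2 CPM at 1 day, all above FHs. Its log2 fold change against FHs was 1.86 ± 0.46 (SE) at 1 day and 2.56 ± 0.65 in dediHeps. The dediHep cultures spread from 17.8 to 105 CPM with a median of 48.8 CPM. The 15 pairs of neighbouring groups in the order of Psph levels all overlapped.

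The genes of the folate branch went in different directions. Mthfd2, the mitochondrial dehydrogenase, had 2, 0 and 1 counts in FHs, and 35.7, 8.83 and 24.4 CPM at 3 h. It was thus higher in every 3 h library than in any FH library, with a ratio of summed counts of 19.0 (95% exact interval for counting error, 6.17 to 94.7). At 1 day its level was 90.0 ± 21.4 CPM (SD, n = 3), and in dediHeps it ran from 27.4 to 169 CPM with a median of 34.5 CPM. The ratio of dediHeps to FHs was 57.3 (19.5 to 279). Mthfd2 and Psat1 were thus the only members with non-overlapping FH and 3 h libraries, that is 2 of 10 higher and 0 of 10 lower, where 13.1% of all genes tested were higher and 15.3% lower without overlap.

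Shmt1, the cytosolic serine hydroxymethyltransferase, was highest in FHs and at 3 h. It measured 833, 320 and 558 CPM in FHs and 561, 651 and 685 CPM at 3 h, and 82.4, 110 and 70.2 CPM at 1 day, below every FH library. It was lowest at 2 weeks with 20.7 ± 2.78 CPM (SD, n = 3), a log2 fold change of -4.79 ± 0.42 (SE) against FHs. dediHeps had 32.4 to 170 CPM with a median of 90.8 CPM, and aggregates 310, 164 and 438 CPM, which overlapped FHs.

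Shmt2, the mitochondrial form, had, after Mat2a, the smallest ratio of the highest to the lowest group mean. Its level was 934 ± 234 CPM in FHs and 924 ± 98.3 CPM at 3 h, 431 ± 170 CPM at 1 day (SD, n = 3 each) and 115 to 586 CPM in dediHeps with a median of 257 CPM. The log2 fold change against FHs was -1.21 ± 0.37 (SE) at 1 day and -1.74 ± 0.45 in dediHeps, with no overlap between the groups. The highest level outside the early hepatocyte groups was that of FIPC-SOs, 652 ± 112 CPM (SD, n = 3).

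The share of Shmt2 in the summed counts of Shmt1 and Shmt2 was 44.4% to 77.3% in FHs and 91.0% to 95.0% at 2 weeks. In dediHeps it ran from 60.2% to 86.6%, in aggregates from 53.2% to 71.4% and in dediHep-BOs from 42.2% to 50.1%. The share overlapped that in FHs at 3 h, 1 day and 4 days, and in dediHeps, aggregates, dediHep-BOs, dediHep-SOs, FIPC-SOs and ISC-BOs. At 2 days, 1 week and 2 weeks, with verteporfin or DMSO, and in CLiPs (90.2% to 95.1%) it was above that in FHs.

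**Figure D2:**
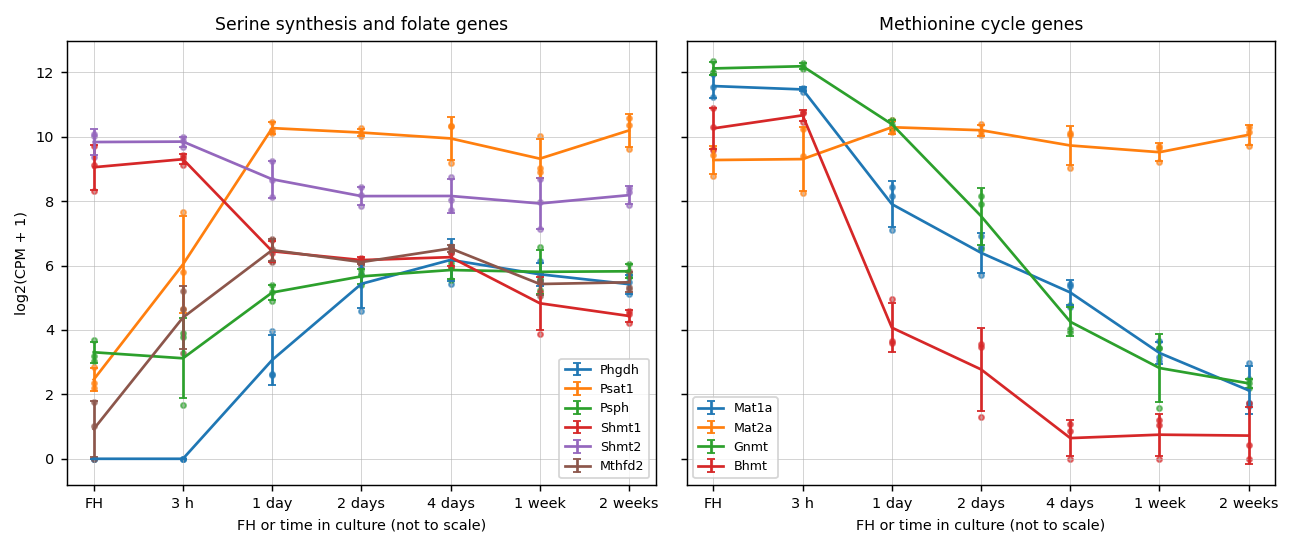
Levels of the 6 serine and folate genes (left) and the 4 methionine cycle genes (right) from FHs to 2 weeks, as log2(CPM + 1) with TMM scaling; points are libraries, and lines and bars give mean and SD of 3 libraries. Psat1 and Mthfd2 were higher at 3 h than in FHs, whereas Mat1a, Gnmt and Bhmt were lower from 1 day on.

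In the methionine cycle, Bhmt, Mat1a and Gnmt were below all FH libraries from 1 day on, with differences of unequal size, while the mean of Mat2a was above that of FHs at each time. Bhmt, the betaine-dependent methyltransferase, had the largest difference of the 3 at 1 day. It measured 775, 1889 and 1253 CPM in FHs, 1418, 1712 and 1754 CPM at 3 h, and 29.9, 11.1 and 11.7 CPM at 1 day. The log2 fold change at 1 day was -6.30 ± 0.64 (SE), or -6.91 without the first 1 day library, against -3.69 for Mat1a and -1.83 for Gnmt. At 4 days 4 counts remained in 3 libraries, and none of the 5 dediHep cultures had a count, which makes Bhmt at least 4992-fold lower in dediHeps than in FHs. All libraries of dediHep-SOs, dediHep-BOs, FIPC-SOs and ISC-BOs were also at 0.

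Mat1a, the methionine adenosyltransferase of the adult liver, measured 2392, 3930 and 3002 CPM in FHs and 2700, 2875 and 2925 CPM at 3 h. It then stood at 257 ± 109 CPM at 1 day, 88.1 ± 34.2 CPM at 2 days, 35.7 ± 9.10 CPM at 4 days, 8.93 ± 2.37 CPM at 1 week and 3.79 ± 2.68 CPM at 2 weeks (SD, n = 3 each). After 3 h, every library of a time lay below every library of the time before. In dediHeps 3 cultures had no count and the others 1.97 and 5.21 CPM. The log2 fold change of dediHeps against FHs was -11.17 ± 1.00 (SE). It rests on 16 counts in those 2 cultures, and was -12.48 without the fifth dediHep library.

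Gnmt, the glycine methyltransferase, was the member with the highest level in FHs, 4065, 5232 and 4145 CPM, and of the 3 liver enzymes the one with the smallest difference at 1 day. It measured 4672 ± 303 CPM at 3 h, 1342 ± 110 CPM at 1 day, 206 ± 101 CPM at 2 days, 18.8 ± 6.67 CPM at 4 days and 4.09 ± 0.51 CPM at 2 weeks (SD, n = 3 each). Its counts in FHs and at 3 h, up to 4014, were close to the limit of the UMIs, and the log2 fold change at 1 day was -1.83 ± 0.39 (SE). With counts corrected for UMI collisions the mean was 11703 CPM in FHs and 1842 CPM at 1 day. In dediHeps Gnmt ran from 5.59 to 174 CPM with a median of 12.1 CPM, and the culture with 174 CPM stood above the other 4, at 5.59 to 48.9 CPM.

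Mat2a, the adenosyltransferase of other tissues, was present in FHs at 437, 684 and 794 CPM and changed little by comparison on the TMM scale. It stood at 1185, 1127 and 1477 CPM at 1 day, above every FH library, at 591 to 830 CPM at 1 week, which overlapped FHs, and at 683 to 1523 CPM in dediHeps, which also overlapped. The log2 fold change against FHs was 0.89 ± 0.38 (SE) at 1 day, 0.15 at 1 week and 0.62 ± 0.35 in dediHeps. With library totals it was 1.57, 1.03 and 1.52, so the size of the Mat2a change depended on the scaling. All 15 pairs of neighbouring groups in the order of Mat2a levels overlapped.

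The relation of Mat2a to Mat1a was inverted within a day of plating. Mat2a made up 14.8% to 20.9% of the summed counts of both genes in FHs, 9.64% to 31.1% at 3 h and 77.3% to 91.5% at 1 day, with no overlap between 3 h and 1 day. The share was 99.4% or more in every library at 2 weeks, in dediHeps, in both kinds of spherical organoid and in both kinds of budding organoid. Mat1a had no count at all in FIPC-SOs and a single count over the 4 ISC-BO libraries. With counts corrected for UMI collisions the median share was 12.2% in FHs, 13.8% at 3 h and 84.1% at 1 day, against 15.4%, 18.7% and 79.7%.

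**Figure D3:**
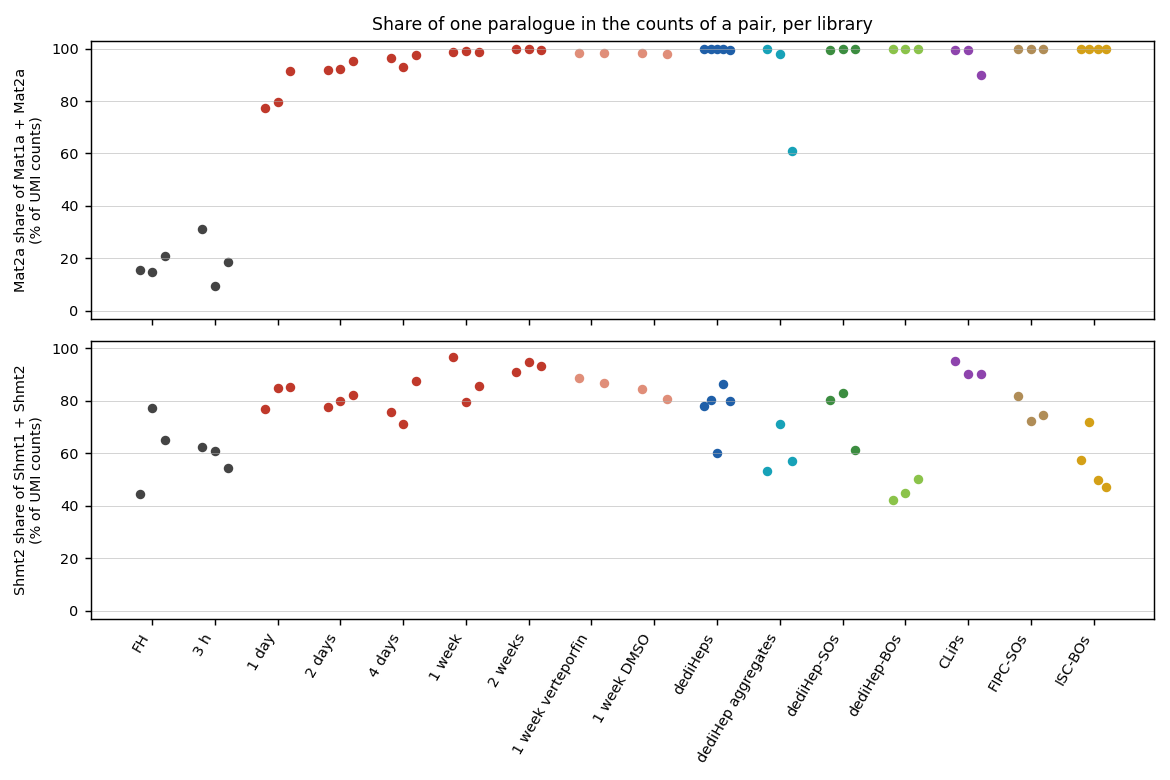
Share of Mat2a in the counts of Mat1a and Mat2a (top) and of Shmt2 in the counts of Shmt1 and Shmt2 (bottom), in % of UMI counts, for every library (point) of the 16 groups. The Mat2a share was at most 31.1% in FHs and at 3 h and at least 77.3% in all later libraries except the third aggregate library, at 61.1%.

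At 1 day, 5 of the 10 genes (Phgdh, Psat1, Psph, Mthfd2 and Mat2a) were above and the other 5 below all FH libraries, where 22.5% and 20.0% of all genes tested lay above and below without overlap. In dediHeps, 4 of 10 were called higher (Phgdh, Psat1, Psph and Mthfd2) and 4 lower (Shmt1, Mat1a, Gnmt and Bhmt), by the limits used for all genes (false discovery rate below 0.1, log2 fold change beyond 2 in either direction), where 13.1% and 12.6% of all 11276 genes tested were called. At 4 days 4 were above and 5 below all FH libraries (26.8% and 21.2% of all genes tested), at 1 week 4 and 5 (24.2% and 19.8%) and at 2 weeks 5 and 5 (29.6% and 25.3%). Since the genes were chosen by their levels over all groups, nothing is read from those counts. The same holds for counts of the 10 genes called or not overlapping in every other comparison. With library totals in place of TMM factors, no log2 fold change against FHs at 1 day or later changed sign for any of the 10 genes. All 10 passed the filter on low counts in these fits.

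In aggregates, Gnmt and Bhmt were above all dediHeps, while the 3 serine synthesis genes overlapped dediHeps. Gnmt measured 1774, 519 and 1474 CPM in the 3 aggregates, against 5.59 to 174 CPM in the 5 dediHep cultures, a log2 fold change of 4.66 ± 0.97 (SE) that was 6.02 without the fifth dediHep library and 6.05 with the culture as a block. In the 3 cultures measured in both states it stood at 5.59, 12.1 and 48.9 CPM before aggregation, so that it was higher in 3 of 3 pairs. Bhmt, at 0 in all dediHeps, had 15.3, 3.47 and 17.8 CPM in aggregates, at least 44.1-fold more than 3 counts over the dediHep group, and 113-fold less than in FHs by summed counts. Gnmt in aggregates remained below FHs, with a log2 fold change of -1.94 ± 0.43 (SE) on counts that were not corrected and -2.87 on corrected counts.

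Mat1a differed between the aggregates more than any other member, with 3.23, 24.8 and 720 CPM. The third aggregate, grown from the culture of the fourth dediHep library, which had 1.97 CPM, decides the group's value: the log2 fold change against dediHeps was 7.42 ± 1.55 (SE), 8.45 with the culture as a block and 3.304 without that library. Its Mat2a share was 61.1%, against 99.8% and 98.1% in the other aggregates. The sum of hepatocyte markers in that library, 8586 CPM, lay between those of the other aggregates, 11575 and 7182 CPM.

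Shmt1 measured 310, 164 and 438 CPM in aggregates and 32.4, 91.0 and 90.8 CPM in the dediHeps of the same cultures, higher in 3 of 3 pairs, with a log2 fold change of 1.80 ± 0.50 (SE) over all libraries. The groups overlapped, since another dediHep culture had 170 CPM. Psat1 measured 2771, 1752 and 1753 CPM in aggregates, which overlapped the range of dediHeps, 765 to 1838 CPM. With counts corrected for UMI collisions its mean in aggregates was 4857 CPM instead of 2092 CPM. For Phgdh the log2 fold change was -0.44 ± 0.36 (SE), and for Mthfd2 -0.25 ± 0.60, which became 0.45 without the fourth dediHep library, whose level was 169 CPM. Of the 9 members tested, 2 were called higher and 0 lower, where 4.39% and 5.11% of all genes were called, and nothing is read from these counts. Bhmt did not pass the low-count filter. The proliferation markers summed to 83.2 to 180 CPM in aggregates and to 542 to 2536 CPM in dediHeps, and their part in these differences was not tested.

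**Figure D4:**
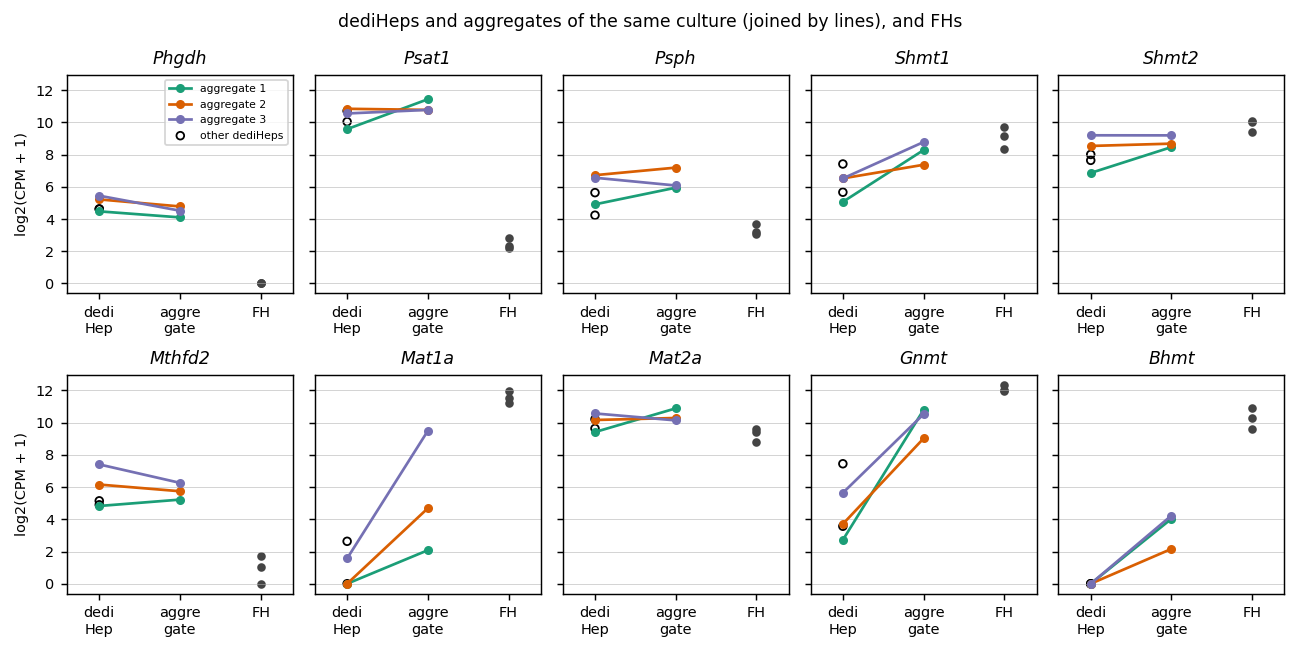
Levels of the 10 genes, as log2(CPM + 1) on the y axis, in dediHeps and aggregates of the same culture (filled points joined by lines, 3 cultures), in the 2 other dediHep cultures (open circles) and in FHs. Gnmt, Bhmt, Mat1a and Shmt1 were higher in the aggregate in 3 of 3 pairs, and Phgdh, Psat1, Psph and Mthfd2 stayed above FHs.

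CLiPs overlapped dediHeps in all 10 genes, and 1 library stood apart. Bhmt had 0, 0 and 66.5 CPM, Mat1a 4.44, 2.31 and 95.0 CPM and Gnmt 9.86, 9.67 and 168 CPM in the 3 CLiP libraries. The third library was the highest in all 3 liver genes, and its hepatocyte markers summed to 7084 CPM, against 1577 and 1459 CPM in the others. Without it, the log2 fold change of Gnmt against dediHeps went from 0.37 to -2.34, and without the fifth dediHep library to 1.77. Phgdh measured 33.0, 80.7 and 11.3 CPM, with a log2 fold change of 0.52 ± 0.53 (SE) that became -0.37 without the second library. Shmt1 was at 15.8 to 35.7 CPM in CLiPs and 32.4 to 170 CPM in dediHeps, a log2 fold change of -1.77 ± 0.55 (SE), and Psat1 and Mat2a overlapped. Of 9 members tested, 0 were called in either direction, where 1.65% of all genes were called higher and 1.39% lower, and 6.19% and 5.82% did not overlap.

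In dediHep-SOs, Gnmt, Mthfd2 and Phgdh were below all dediHeps. Gnmt measured 1.29, 1.49 and 2.78 CPM, with a log2 fold change of -4.74 ± 1.26 (SE) that was -3.34 without the fifth dediHep library and -2.34 with the culture as a block. Mthfd2 measured 22.8, 21.8 and 21.3 CPM, below all dediHeps (27.4 CPM or more), and Phgdh 20.2, 15.4 and 16.7 CPM, below all dediHeps (21.3 CPM or more). Their log2 fold changes were -1.58 ± 0.62 and -0.76 ± 0.36 (SE). That of Mthfd2 was -0.88 without the fourth dediHep library and -0.90 with the culture as a block. Psat1 measured 1174, 1715 and 903 CPM, within the range of dediHeps. Of the 10 genes, Gnmt, Mthfd2 and Phgdh lay below all dediHeps and 0 above, where 9.97% and 10.6% of all genes tested did so.

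FIPC-SOs, the fetal intestinal counterpart, had more of several of these transcripts than dediHep-SOs. Mthfd2 measured 179, 132 and 139 CPM in FIPC-SOs, its highest group mean in the series, and the log2 fold change of dediHep-SOs against them was -2.81 ± 0.29 (SE). Psph measured 59.2, 67.3 and 47.8 CPM against 26.3, 14.9 and 13.0 CPM, Phgdh 25.3, 42.4 and 48.2 CPM against 15.4 to 20.2 CPM, and Shmt1 171, 245 and 186 CPM against 65.9 to 91.2 CPM. Gnmt was present in FIPC-SOs at 19.9, 24.5 and 12.8 CPM. Psat1 overlapped between both kinds of organoid, and Mat2a was higher in dediHep-SOs, 736 to 1087 CPM against 508 to 714 CPM. Of the 10 genes, 6 were lower and 2 higher in dediHep-SOs without overlap, where 15.5% and 18.4% of all genes tested were. Beside Mat2a the higher gene was Mat1a, with 13 counts against 0, which did not pass the low-count filter behind these shares.

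dediHep-BOs differed from dediHep-SOs most in Shmt1 among the 7 members tested, which measured 181, 187 and 250 CPM against 65.9, 69.5 and 91.2 CPM, a log2 fold change of 1.48 ± 0.27 (SE). ISC-BOs had 236 to 302 CPM of Shmt1, which overlapped dediHep-BOs. Phgdh was at 7.28, 4.85 and 14.6 CPM in dediHep-BOs, below all dediHep-SOs, and at 6.12 to 24.3 CPM in ISC-BOs. Mthfd2 was at 28.6, 22.5 and 37.2 CPM in dediHep-BOs and at 57.7 to 100.3 CPM in ISC-BOs, without overlap, and was the single member in that comparison whose groups did not overlap, 1 of 10, where 11.2% of all genes tested were lower in dediHep-BOs without overlap. Against dediHep-SOs, 2 of 10 were higher and 2 lower without overlap, where 22.2% and 24.4% of all genes tested were. Among them Gnmt, higher with 23 against 13 counts, and Mat1a, lower with 2 against 13 counts, did not pass the low-count filter behind these shares.

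After 1 week with verteporfin, most members lay close to the DMSO libraries. Phgdh measured 45.1 and 48.9 CPM with verteporfin and 77.7 and 73.8 CPM with DMSO, a log2 fold change of -0.66 ± 0.28 (SE), and Shmt2 387 and 367 CPM against 268 and 298 CPM. Bhmt stood at 8.37 and 8.05 CPM against 5.93 and 2.24 CPM. Of the 10 members 2 were higher and 1 lower without overlap, where 18.8% and 21.1% of all genes tested were, and 0 were called, where 0.240% and 0.0288% were. The 2 DMSO libraries had more Gnmt (17.1 and 17.9 CPM) than any 1 week library of the time course (1.99 to 9.86 CPM), although both were grown for 1 week.

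Other genes of these pathways were tested in the same fits, in lists that were also chosen with earlier results of these data known. These genes are thus no independent support for the 10. They comprised 26 serine and folate genes, 24 genes of the methionine cycle and of methyl group metabolism, and 23 genes of the amino acid response driven by ATF4, a transcription factor that is known to induce Phgdh, Psat1 and Mthfd2. At 3 h against FHs, 3 of the 69 that could be tested were called higher and 0 lower, where 3.06% and 3.85% of all genes were. Chac1, an ATF4 target that breaks down glutathione, rose from 23.2 ± 32.2 to 468 ± 99.9 CPM (SD, n = 3 each), by a log2 fold change of 4.34 ± 0.73 (SE) with an adjusted p of 0.000555 in edgeR's quasi-likelihood test. By the same test Slc7a1, an arginine transporter, rose by 2.95 ± 0.63 (adjusted p = 0.00502), and Sds, the serine dehydratase of the liver, by 3.47 ± 0.70 (adjusted p = 0.00750). DESeq2 also called 3 genes at 3 h, but all of the ATF4 list, so Sds was called by edgeR only. No gene of the methionine cycle list was called by edgeR or DESeq2 at 3 h, and 8 of its 24 had an unadjusted p under 0.05.

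At 1 day, the ATF4 list and the methionine cycle list had moved in opposite directions. Of 20 ATF4 response genes tested, 12 rose and 0 fell, with a median log2 fold change of 2.17. Of 24 methionine cycle genes, 12 fell and 1 (Srm, spermidine synthase) rose, with a median of -2.03, and of 25 serine and folate genes 3 rose and 6 fell, with a median of -0.59. Over all genes 6.57% rose and 10.9% fell, with a median of -0.03. With library totals, the split over the 3 lists went from 16 higher and 18 lower to 21 higher and 13 lower. Asns, asparagine synthetase, rose from 1.77 ± 2.13 to 57.5 ± 9.23 CPM (SD, n = 3 each; log2 fold change 4.76 ± 0.63, adjusted p = 4.19e-06), and Slc7a1 and Pck2, the mitochondrial PEPCK, were the others with the smallest p of that list. Among serine and folate genes, Mthfd1l, which releases formate in mitochondria, rose by 4.26 ± 0.67 (SE; adjusted p = 3.76e-05), as did Aldh1l2 and Slc1a4, a serine transporter. Sds, which had risen at 3 h and is named here after its values were seen, was at 2 counts over 3 libraries at 1 day.

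Of the genes that fell at 1 day, those with the smallest p in the methionine cycle list were Csad, Chdh and Bhmt2. Csad, an enzyme of taurine synthesis, went from 368 ± 90.6 to 20.4 ± 11.6 CPM (SD, n = 3 each), a log2 fold change of -4.26 ± 0.37 (adjusted p = 1.86e-08 in edgeR's test). Chdh, which makes the betaine aldehyde that leads to the methyl donor of Bhmt, fell by 6.59 on the log2 scale (adjusted p = 2.71e-08), and Bhmt2, the paralogue of Bhmt, by 5.03 (adjusted p = 4.43e-08). Ftcd, which feeds folate from histidine breakdown, fell by 4.38 (adjusted p = 1.15e-07), and Srr and Aldh1l1 also fell.

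At the later times, the methionine cycle list had 13, 13, 13 and 12 genes that fell at 2 days, 4 days, 1 week and 2 weeks, and 0, 0, 0 and 2 that rose. These counts do not say which genes were called at each time. The ATF4 list had 9 genes that rose at each of these times and 0 that fell. The serine and folate list had 4 that rose and 7 that fell at 2 days, and 5 that rose and 8 that fell at 2 weeks. Over all genes, 9.21% to 14.1% rose and 12.1% to 15.3% fell at these times. With library totals, the 3 lists together split into 25 higher and 15 lower at 2 days, 25 and 17 at 4 days, 23 and 15 at 1 week and 21 and 18 at 2 weeks, against 13 and 20, 14 and 20, 14 and 22 and 16 and 20 with TMM factors. At 2 weeks the rising methionine cycle genes were Mtap, of methionine salvage, and Srm.

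In dediHeps against FHs, 14 of 24 methionine cycle genes fell and 0 rose, 10 of 24 serine and folate genes fell and 4 rose, and 9 of 19 ATF4 response genes rose and 0 fell. The medians were -2.79, -0.74 and 2.10 on the log2 scale, against 0.08 over all genes, of which 13.1% rose and 12.6% fell. With library totals the split over the 3 lists went from 13 higher and 24 lower to 21 higher and 18 lower. Cdo1, the cysteine dioxygenase of taurine synthesis, went from 1410 ± 362 CPM (SD, n = 3) to no count in any dediHep library (at least 5448-fold lower; adjusted p = 3.66e-06 in edgeR's test), and Csad and Chdh fell as well. Srr, Ftcd and Amt, of the glycine cleavage system, were the serine and folate genes that fell with the smallest p, and Slc1a5, a transporter of glutamine and serine, Mthfd2l, the paralogue of Mthfd2, and Slc1a4 those that rose. Slc1a5 rose from 1.59 ± 0.69 to 80.1 ± 59.0 CPM (SD, n = 3 and 5; adjusted p = 0.000341 in edgeR's test). Slc7a1, Pck2 and Aldh18a1, of proline synthesis, led the ATF4 list, Slc7a1 with 2.68 ± 1.48 and 247 ± 139 CPM.

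**Figure D5:**
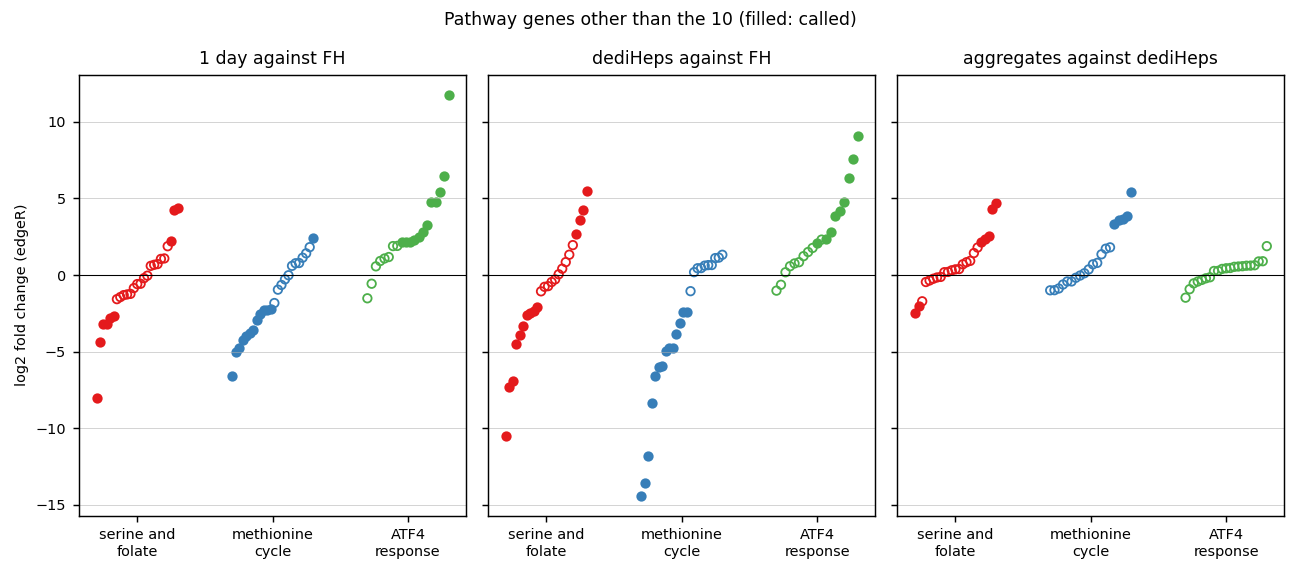
Log2 fold changes (y axis, edgeR) of the tested pathway genes other than the 10, by list, at 1 day against FHs, in dediHeps against FHs and in aggregates against dediHeps; each circle is a gene, ordered by value, and filled circles were called (same limits as for the 10 genes). In dediHeps 14 of 24 methionine cycle genes were called lower and 9 of 19 ATF4 response genes higher; in aggregates 5 of 20 methionine cycle genes were called higher.

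In aggregates against dediHeps, part of the liver enzymes rose again while the ATF4 list had no call. Of 20 methionine cycle genes tested 5 rose (Pemt, Csad, Sardh, Chdh and Cbs) and 0 fell, and of 23 serine and folate genes 5 rose and 2 fell (Slc1a5 and Ggh), where 4.39% of all genes rose and 5.11% fell. Pemt, which makes phosphatidylcholine with S-adenosylmethionine, rose from 3.26 ± 1.28 to 42.4 ± 20.6 CPM (SD, n = 5 and 3; log2 fold change 3.67 ± 0.46, adjusted p = 0.000981 in edgeR's test). Csad rose by 3.59 ± 0.46 (SE; adjusted p = 0.00114) and Sardh, which oxidizes the product of Gnmt, by 3.88 ± 0.51 (adjusted p = 0.00125). Ftcd rose from 9.95 ± 7.64 to 261 ± 139 CPM (adjusted p = 0.00186), and Srr and Slc19a1, the reduced folate carrier, followed. Of the 21 ATF4 response genes tested, 0 were called by edgeR and 1 by DESeq2, and 1 had an unadjusted p under 0.05, with a list median of 0.44 against -0.07 over all genes.

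Against FHs, aggregates still had 11 of 24 methionine cycle genes lower and 0 higher, and 10 of 18 ATF4 response genes higher and 0 lower, where 6.78% of all genes were higher and 9.78% lower. The comparison shares the FH libraries with that of dediHeps. With library totals the 3 lists split into 18 higher and 13 lower, against 14 and 17. The lower methionine cycle genes with the smallest p were Dmgdh, Bhmt2 and Aldh7a1. Slc7a1, Slc7a11, a cystine transporter, and Pck2 were those of the higher ATF4 response genes. Of 23 serine and folate genes 4 were higher, led by Slc19a1, Slc1a4 and Slc1a5, and 6 lower, led by Amt, Mthfd1 and Aldh1l1.

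Among the other comparisons, CLiPs differed from dediHeps in 1 of 64 pathway genes, Chdh, with 9.42 ± 3.01 against 0.310 ± 0.442 CPM (SD, n = 3 and 5; log2 fold change 4.66 ± 0.82, adjusted p = 0.0184 in edgeR's test). Without the first CLiP library 0 were called. DESeq2 called 3, and 13 had an unadjusted p under 0.05, where 1.65% of all genes were higher and 1.39% lower in edgeR. dediHep-SOs had 2 pathway genes higher and 6 lower than dediHeps of 61 tested (4.12% and 4.65% of all genes), and 1 higher and 4 lower with the culture as a block. Gldc, which cleaves glycine, fell from 77.6 ± 21.0 to 1.13 ± 0.74 CPM (SD, n = 5 and 3; adjusted p = 7.72e-05 in edgeR's test), and Ftcd fell, as did Pipox, Cth and Gamt of the methionine cycle list and Chac1 of the ATF4 list, while Chdh and Ahcyl2 rose.

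dediHep-BOs had 2 pathway genes higher (Cth and Pipox) and 3 lower (Sardh, Slc7a5 and Slc7a11) than dediHep-SOs of 59 tested, where 5.60% of all genes were higher and 5.68% lower. Cth, the cystathionine lyase of transsulfuration, stood at 1.85 ± 0.81 CPM in dediHep-SOs and 55.0 ± 18.7 CPM in dediHep-BOs (SD, n = 3 each; adjusted p = 9.15e-05 in edgeR's test). dediHep-SOs against FIPC-SOs had 6 of 22 ATF4 response genes lower and 0 higher, led by Asns, Stc2 and Chac1, and 2 methionine cycle genes higher (Sardh and Cbs) and 3 lower (Cth, Cdo1 and Pipox), with Aldh1l2 lower in the serine and folate list, where 3.99% of all genes were lower and 4.92% higher. dediHep-BOs against ISC-BOs had 3 of 62 lower, Cdo1, Stc2 and Chac1, and 0 higher, where 1.71% and 1.34% of all genes were, and 1 gene without the first or second dediHep-BO or the first ISC-BO library. With verteporfin, 0 of 61 pathway genes were called by edgeR or DESeq2, and 9 had an unadjusted p under 0.05.

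The genes most like each member were sought over log2(mean CPM + 1) of the 16 groups, among 9986 genes with a mean of at least 10 CPM, as a description over groups that share cultures and depth. Mat1a was most like F9 (r = 0.99), Abcb11 and Agxt2, Gnmt most like Asgr2 (r = 0.98), F10 and Serpinc1, and Bhmt most like Gm5096 (r = 0.995), Slc16a7 and Acsm1. Mthfd2 was most like Asns (r = 0.89), a member of the ATF4 list, Iars and Gm13504, and Psph most like Lars (r = 0.94), Polr1e and Mum1l1. Psat1 was most like Specc1 (r = 0.93), Elovl7 and Anxa2, Phgdh most like Slc24a5 (r = 0.96), Cdkn2aipnl and Hmga2, and Mat2a most like Gng5 (r = 0.88), Spryd3 and Fam173b. Shmt1 was most like Fmc1 (r = 0.95), Dera and Galm, and Shmt2 most like Atp5d (r = 0.91), Hyi and Gstm4. Among the members themselves, Mat1a, Gnmt and Bhmt had pairwise r of 0.86 to 0.92, Psat1 and Mthfd2 of 0.86, and Mat1a and Mat2a of 0.18.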

How the data were processed

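The authors sequenced 3′ ends with CEL-seq2 and deposited UMI counts per Ensembl gene for 49 libraries, not normalized. The submitters' processing notes name bcl2fastq 2.20, Bowtie2 2.3.1, HTSeq 0.6.0 and GRCm38. Columns were assigned to groups from the labels, and 45143 of 46078 identifiers matched a symbol. The 10 genes, the 3 lists of other pathway genes and the tests were chosen with earlier results of these data known.

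Levels are CPM with TMM factors over all libraries. For 15 comparisons, edgeR 4.0.16 (R 4.3.3) was fitted on the groups compared, and on FHs and the 6 times together for the time course, with filterByExpr (minimum count 10, minimum total 15), the quasi-likelihood F-test and Benjamini-Hochberg adjustment over all genes tested. A gene was called when its FDR was below 0.1 and its log2 fold change beyond 2 in either direction. The script was tested on simulated data. Pathway genes named are at most 3 called genes per list and direction with the smallest p, and all called genes of a list with 5 or fewer. Means carry the SD between libraries and fold changes the SE of the fit. Folds against 0 counts are bounds at 3 counts over the group, and intervals (exact, 95%) cover counting error only.

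Pairs of replicates differed by more than sampling noise (chi-square per degree of freedom 3.36 to 48.4 over 54 pairs). Aggregates and dediHep-SOs share named cultures with dediHeps. Deviations of aggregates and dediHeps of a culture had r of 0.18 to 0.36, and those of dediHep-SOs and dediHeps -0.50 to 0.04. Both ranges lie within that of pairs by title number, which are no known pairing, -0.61 to 0.56. Alternatives were DESeq2 1.42.0, RLE normalization, library totals, no low-count filter, all 49 libraries in a single fit, correction for UMI collisions, an absolute log2 fold change over 1, a replicate block and leaving out each library. 0 columns were left out.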

Additional observations from a re-analysis of the deposited data

Results flagged for a closer look

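Among 18 combinations of a gene and a group with 4 or 5 libraries, 3 held a library set apart from the others by Dixon's criterion, which chance alone gives in about 1 of 20 groups. Gnmt stood at 174 CPM in the fifth dediHep culture, where the next highest culture had 48.9 CPM. Mat2a stood at 513 CPM in the first ISC-BO library, below the next at 707 CPM. Mat1a stood at 0.424 CPM in the third ISC-BO library, which is a single count where the other 3 libraries had none.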

How the results depend on the processing

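Counts are of pathway genes called. A limit of 1 on the absolute log2 fold change gave 11 instead of 3 at 3 h, 53 instead of 33 at 2 days, 52 instead of 34 at 4 days and 56 instead of 36 at 2 weeks, 47 instead of 31 in aggregates against FHs, 13 instead of 8 in dediHep-SOs against dediHeps, 16 instead of 5 in dediHep-BOs against dediHep-SOs, 20 instead of 12 in dediHep-SOs against FIPC-SOs, 9 instead of 3 in dediHep-BOs against ISC-BOs and 1 instead of 0 with verteporfin. For CLiPs against dediHeps, where 1 gene was called, DESeq2 gave 3, library totals 2, no low-count filter 3, the replicate block 2, all 49 libraries in a single fit 8 and the limit of 1 gave 3. The replicate block, here the shared culture, gave 5 instead of 8 in dediHep-SOs against dediHeps and, CLiPs apart, moved no other count by over 1.5 times; outside comparisons of a shared culture, title numbers are no known pairing, and with them as a block the log2 fold change of Mat1a in dediHeps against FHs was -15.54 instead of -11.17. The other alternatives, leaving out libraries apart, stayed within 1.5 times of the count.

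Leaving out 1 library at a time gave 3 to 6 at 3 h (6 without FH replicate 1), 30 to 37 at 1 day, 32 to 33 at 2 days, 32 to 35 at 4 days, 34 to 38 at 1 week, 36 to 39 at 2 weeks, 35 to 40 in dediHeps, 10 to 15 in aggregates against dediHeps, 26 to 34 in aggregates against FHs, 0 to 3 in CLiPs (0 without CLiP replicate 1, 3 without CLiP replicate 2 or dediHep replicate 1, 2 without dediHep replicate 4), 6 to 9 in dediHep-SOs against dediHeps, 5 to 9 in dediHep-BOs against dediHep-SOs (9 without dediHep-SO replicate 3), 12 to 15 in dediHep-SOs against FIPC-SOs, 1 to 3 in dediHep-BOs against ISC-BOs (1 without dediHep-BO replicate 1 or 2 or ISC-BO replicate 1) and 0 to 1 with verteporfin (1 without verteporfin replicate 2 or DMSO replicate 1), where the lone library of an arm is assumed to vary like the others. Of 138 log2 fold changes of the 10 genes, 25 changed sign under some alternative, all of them 0.56 or less in size. The causes were not tested. Counts near the limit of 4096 UMI sequences and 3 counts at the low end bound what can be measured.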
